A study of Mus musculus with 15 samples.

Results

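The 10 genes described here are carried by the mouse mitochondrial genome and encode subunits of the respiratory chain and of ATP synthase. They are mt-Nd1, mt-Nd2, mt-Nd3, mt-Nd4, mt-Nd4l, mt-Nd5 and mt-Nd6 of complex I, mt-Cytb of complex III, mt-Co1 of complex IV and mt-Atp6 of ATP synthase. They are 10 of 37 annotated mitochondrially encoded genes (13 protein-coding, 22 for transfer RNAs, 2 for ribosomal RNAs) and 10 of 44022 genes in the joined expression table. They were taken as a named list, drawn up with the knowledge that mt-Nd6 was listed at 0 in all 3 libraries of the high extract dose. Those zeros chose the list, so they are given as a description and no contrast with that group was tested. They do enter the spread that the tests of mt-Nd6 share over all groups. The other 3 mitochondrial coding genes, mt-Co2, mt-Co3 and mt-Atp8, are given only where they share a locus or a level.

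The large intestine of male C57Bl/6 mice aged 4 weeks was profiled by RNA sequencing after oral gavage on 3 consecutive days, with tissue taken 12 h after the last dose. Of the 5 groups of 3 libraries each, 1 received cymopol at 1.4 mmol/kg (high dose), 1 cymopol at 0.3 mmol/kg (low dose), 1 a nonpolar (NP) extract of alga at 1.0 g/kg (high dose), 1 the same extract at 0.3 g/kg (low dose), and 1 the vehicle alone. All groups, the vehicle included, received Chremophor EL with 10% DMSO. Cymopol is a brominated hydroquinone with a terpene side chain, known from the green alga Cymopolia barbata. Whether each library is a mouse of its own is not stated in the labels, so the p-values measure the spread between libraries, which may be technical.

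In mammals the mitochondrial genome is transcribed from both strands as long precursors that are cut at the transfer RNA genes, which lie between the coding genes like punctuation. All of the coding genes but mt-Nd6 are read from one strand, and mt-Nd6 alone is read from the other, together with a few transfer RNA genes. Complex I takes electrons from NADH, complex III passes them through cytochrome b to cytochrome c, complex IV passes them to oxygen, and ATP synthase uses the proton gradient that results. Colonocytes draw much of their energy from oxidising butyrate in their mitochondria, and mitochondrial mRNAs are usually among the abundant transcripts of such tissue.

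The genes lie close together, and several share bases, which bears on any value assigned to 1 of them. Sequences are from the GENCODE M21 transcripts (GRCm38), written 5′ to 3′ in the sense of the gene. The first pair shows the opposite-strand overlap of mt-Nd5 and mt-Nd6, whose last 14 bases, in capitals, are the reverse complement of each other. The second shows the 43 bases that mt-Atp8 and mt-Atp6 share on the same strand, and the third the 7 bases shared by mt-Nd4l and mt-Nd4. The last line is the opening of mt-Nd6, the gene most of the values below concern, with its first codon in capitals.

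mt-Nd6 end, chrM:13552-13611, minus strand: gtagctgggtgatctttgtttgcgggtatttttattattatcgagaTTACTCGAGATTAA
mt-Nd5 end, chrM:13506-13565, plus strand: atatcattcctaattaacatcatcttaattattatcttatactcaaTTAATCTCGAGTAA
mt-Atp8 end, chrM:7910-7969, plus strand: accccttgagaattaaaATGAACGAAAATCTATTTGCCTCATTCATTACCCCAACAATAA
mt-Atp6 start, chrM:7927-7986, plus strand: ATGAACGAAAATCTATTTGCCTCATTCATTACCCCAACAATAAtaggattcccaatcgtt
mt-Nd4l end, chrM:10144-10173, plus strand: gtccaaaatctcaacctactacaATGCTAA
mt-Nd4 start, chrM:10167-10196, plus strand: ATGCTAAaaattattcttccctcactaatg
mt-Nd6 start, chrM:14011-14070, minus strand: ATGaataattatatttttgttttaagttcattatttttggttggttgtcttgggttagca

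The strand shows in the letters. Of the bases of mt-Nd6, 28.1% were G and 5.97% were C, against 8.0% to 16.1% G and 22.1% to 29.97% C in the other 9 genes. Its share of T was 43.7%, against 27.4% to 32.8% in the other 9. The share of G and C together was 34.1% in mt-Nd6 and lay inside the 33.0% to 41.1% of the other 9.

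Levels are FPKM, fragments scaled to transcript length and library size, as the authors deposited them, each with a lower and an upper bound. The tables give no counts, so the number of fragments behind a value was estimated from the width of its interval. Estimated fragments in protein-coding genes were 287857 to 342013 per library at the high cymopol dose and 31770 to 182961 at the low. They were 174857 to 556026 at the high extract dose, 28417 to 106319 at the low, and 25174 to 226414 with vehicle, so counting error is large for any gene with few fragments. Of protein-coding genes encoded in the nucleus, 39.8% to 74.2% were listed at 0 in a library. The sum of FPKM times gene length, set so that counting each fragment once gives 1, differed between libraries. It was 0.230 in replicate 26 of the low extract dose and 14.6 in vehicle replicate 5, the lowest and highest of the 15. Median-of-ratios factors, used below as an alternative scaling, ordered the libraries otherwise. They were lowest in replicate 26 of the low extract dose (0.06522) and next lowest in vehicle replicate 2 (0.149). Vehicle replicates 4 and 5 had factors of 1.972 and 1.386. The FPKM given below are not rescaled by these factors unless this is stated. Markers of colonocytes were present in all 15 libraries, with at most 3 of 17 listed at 0.

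The mitochondrial mRNAs were listed at 0 in most libraries. Each of the 10 genes had a row of its own or an assembled locus over at least 0.5 of its length in each of the 15 libraries. Of the resulting 150 values, 130 (86.7%) were listed at 0 and 20 were above 0. In the 10 libraries with at least 60000 estimated coding fragments, a check added after the data were seen, 83.0% were listed at 0. The genes at 0 in a library ran from 60% to 100%, and in each library that share was above the share of nuclear protein-coding genes at 0. Nuclear genes that every cell uses were at 0 in some libraries too, such as the complex III gene Uqcrq in 2 vehicle libraries, so a listing at 0 is not taken as absence of the RNA.

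The 20 values above 0 came from 18 distinct loci, 8 of mt-Nd6 and 10 of the other genes. Of these 18, 11 rested on fewer than 2 estimated fragments and 11 had a lower bound of 0. Among the 10 loci of the other genes, 9 rested on fewer than 2. mt-Nd6 was the exception, with a lower bound above 0 in 6 of its 8 loci.

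**Figure D1:**
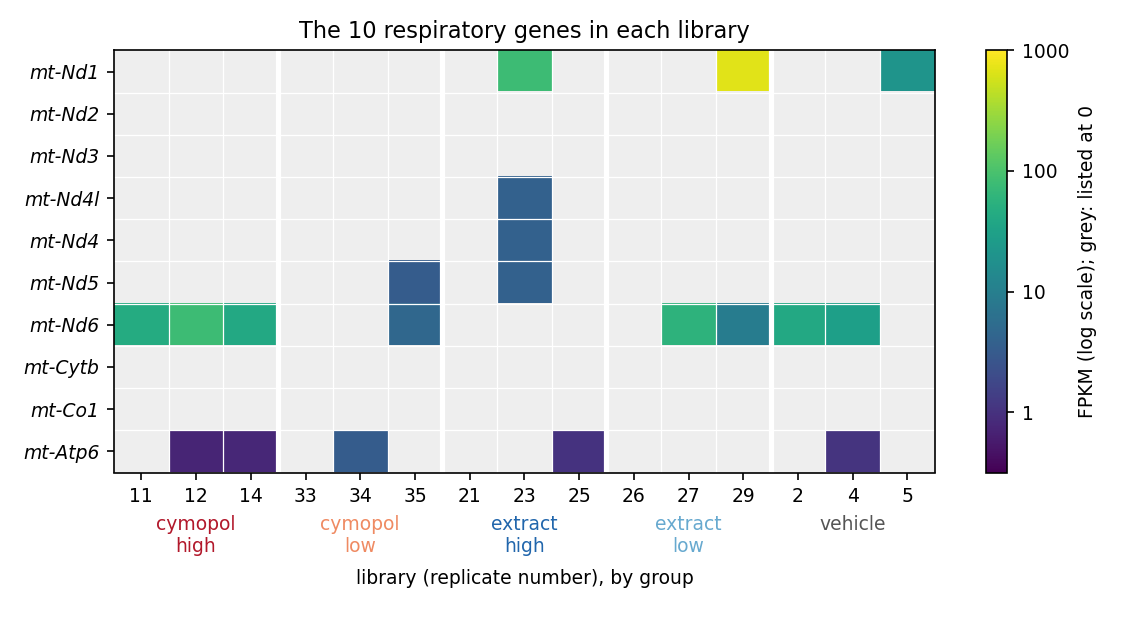
FPKM (colour, log scale) of the 10 genes, 1 row per gene, in each of the 15 libraries, 1 column per library labelled with its replicate number and grouped by treatment, grey where the gene is listed at 0. The mt-Nd6 row holds 8 of the 20 coloured cells, and mt-Nd2, mt-Nd3, mt-Cytb and mt-Co1 are grey throughout.

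mt-Nd6 (ENSMUSG00000064368, chrM:13552-14070, minus strand, 519 bases) encodes a core membrane subunit of complex I. Its level was 45.1, 79.7 and 40.9 FPKM at the high cymopol dose, from an estimated 18.3, 36.0 and 17.4 fragments. At the low cymopol dose it was listed at 0 in replicates 33 and 34 and was 4.73 FPKM in replicate 35, from 1.42 fragments. All 3 libraries of the high cymopol dose were thus above all 3 of the low dose. Replicates 33 and 34 had 31770 and 59166 estimated coding fragments, against 287857 to 342013 at the high dose. The part of depth in their zeros was not tested.

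The values at the high cymopol dose, in replicate 27 of the low extract dose and in vehicle replicate 2 come from assembled loci of 632 to 704 bases that run from the end of mt-Nd5 over mt-Nd6 and the transfer RNA gene mt-Te, 4 of these 5 also touching mt-Cytb. The other 3 values above 0 are those of the annotated row. No source used here says that strand was kept in counting, so reads of mt-Nd6 and of its neighbours on the other strand cannot be told apart there.

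At the high extract dose mt-Nd6 was listed at 0 in replicates 21, 23 and 25, the values that chose the list. At the low extract dose it was listed at 0 in replicate 26, at 57.4 FPKM in replicate 27 from 11.7 fragments and at 9.34 FPKM in replicate 29 from 1.32 fragments. With vehicle it was 40.9 FPKM in replicate 2 from 17.98 fragments, 29.8 FPKM in replicate 4 from 12.7 fragments and listed at 0 in replicate 5. The low extract dose and vehicle each held a library at 0 beside libraries well above it, and the 2 groups overlapped. Estimated coding fragments were 174857 to 556026 at the high extract dose, 28417 in replicate 26 of the low extract dose and 25174 in vehicle replicate 5, and the part of depth in these zeros was not tested.

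**Figure D2:**
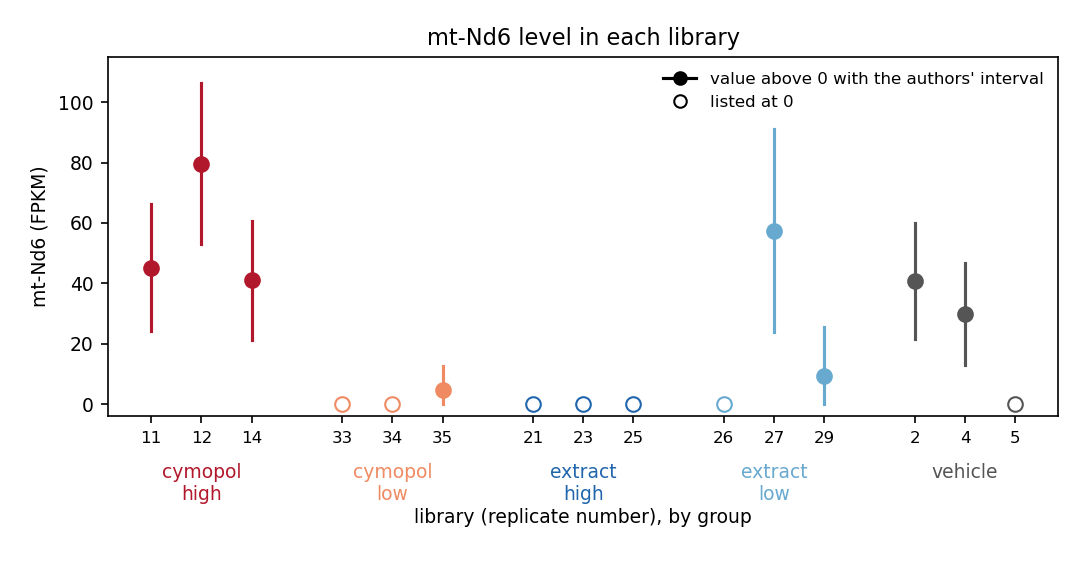
FPKM of mt-Nd6 in each library, with filled points for values above 0, vertical lines for the interval the authors gave, and open points for libraries listed at 0; the horizontal axis gives the replicate number within each group. The 3 libraries of the high cymopol dose sit between 40.9 and 79.7, the 3 of the high extract dose are at 0, and the other groups each hold at least 1 library at 0.

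Ordered by their highest library, the groups ran from the high cymopol dose through the low extract dose and vehicle to the low cymopol dose, with the high extract dose at 0. Neighbours in that order overlapped. The high cymopol dose and vehicle, which are not neighbours, met without overlapping, since the lowest library of the high cymopol dose and the highest of vehicle both round to 40.9 FPKM. Among the 11518 genes tested, 19.5% were higher without overlap at the high cymopol dose than with vehicle, and 9.76% were higher without overlap at the high cymopol dose than at the low, so that such a separation was common in both comparisons. The high cymopol dose was also above the high extract dose without overlap, as 4.48% of the genes tested were, and since the zeros of that group chose the list nothing is read from it.

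mt-Nd6 did not pass the test in any of the 4 comparisons. In limma with Benjamini-Hochberg adjustment over all genes tested, its difference on the log2(FPKM + 1) scale was 2.31 ± 1.33 (SE) for the high cymopol dose against vehicle, with an adjusted p of 0.442. It was -2.61 for the low cymopol dose against vehicle (adjusted p = 0.873 in limma) and -0.37 for the low extract dose against vehicle (adjusted p = 1.0 in limma), with the same SE. For the high cymopol dose against the low it was 4.91, with an adjusted p of 0.445 in limma. Before adjustment the limma p of mt-Nd6 was under 0.05 in this last comparison only, as it was for 5.83% of all genes tested there. In bulk tissue, a difference in the number of cells of a type and a difference in RNA per cell cannot be told apart.

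Few genes of any kind passed in these comparisons. Of the 11518 genes tested, 0.0174% (2 genes, Gm23455 and Gm11973, named after their values were seen) were called for the high cymopol dose against vehicle. Of the same genes, 0.00868% (Gm11973) were called for the high cymopol dose against the low, and 0% for the low cymopol dose and for the low extract dose against vehicle. At an unadjusted p under 0.05 in limma the counts were 1521 for the high cymopol dose, 653 for the low cymopol dose and 451 for the low extract dose against vehicle, and 671 between the cymopol doses. Without the 5 libraries of fewer than 60000 estimated coding fragments, a check added after the data were seen that leaves 1 vehicle library, assumed to vary like the other groups, and 1 of the low cymopol dose, the calls were 277 for the high cymopol dose and 369 for the low extract dose against vehicle. The remaining vehicle library, replicate 4, had a summed level of 716 FPKM over 8 B cell markers, against at most 75.5 FPKM in any other library, and the part of this in the calls was not tested. mt-Nd6 was in neither set, with differences of 0.80 (adjusted p = 0.650 in limma) and -0.33 (adjusted p = 0.907 in limma).

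The values of mt-Nd6 can also be set against the size of each library. Per 1000000 estimated fragments of any kind it was 38.7, 64.1 and 35.7 at the high cymopol dose, against 23.9, 17.4 and 0 with vehicle. Per 1000000 estimated fragments in coding genes it was 63.7, 105 and 57.4 at the high cymopol dose, against 348, 56.1 and 0 with vehicle. The high cymopol dose was above vehicle without overlap on the first measure, for which the share of all genes was not computed; on FPKM it was 19.5%. On the second, vehicle replicate 2 was above all 3 libraries of the high cymopol dose; that library had 51661 estimated fragments in coding genes of 752138 in all.

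Of the remaining complex I genes, mt-Nd1 (chrM:2751-3707, plus strand) encodes a core membrane subunit at the junction with the arm that takes up NADH. It was above 0 in 3 libraries, at 78.9 FPKM in replicate 23 of the high extract dose, 700 FPKM in replicate 29 of the low extract dose and 20.4 FPKM in vehicle replicate 5. The first 2 values are of an assembled locus, chrM:2751-3774, that also spans the transfer RNA gene mt-Ti. That of vehicle replicate 5 is of a locus, chrM:1094-3774, that also spans mt-Ti, mt-Tl1 and the ribosomal RNA gene mt-Rnr2. Fragments of mt-Nd1 and of these neighbours cannot be told apart there. The 700 FPKM is the highest value given to any of the 10 genes, yet it rested on 1.29 estimated fragments. Its interval ran from 0 to 1933. The other 2 values rested on 0.50 and 0.121 fragments. In the library with the 700 FPKM, a control-region locus of 156 bases had 417 FPKM from 21.0 fragments. The length behind the 700 FPKM is not given and was not tested, so it is not read as a level of mt-Nd1.

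mt-Nd5 (chrM:11742-13565, plus strand) encodes the proton-pumping subunit at the far end of the membrane arm. It was 3.27 FPKM in replicate 35 of the low cymopol dose, from 11.0 estimated fragments over an assembled locus, chrM:11742-13639, that spans mt-Nd5 and reaches into mt-Nd6. This is the only value above 0, among the 9 genes other than mt-Nd6, that rested on more than 2 fragments. In replicate 23 of the high extract dose mt-Nd5 shared 1 locus at 3.91 FPKM with mt-Nd4l (chrM:9877-10173) and mt-Nd4 (chrM:10167-11544), from 0.232 fragments. mt-Nd4 encodes another proton-pumping subunit and mt-Nd4l a small membrane subunit beside it, and neither was above 0 in any other library. mt-Nd2 (chrM:3914-4951) and mt-Nd3 (chrM:9459-9806), which also encode membrane subunits of complex I, were listed at 0 in all 15 libraries.

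A further stretch reached into both mt-Nd4 and mt-Nd5 without covering 0.5 of either. In vehicle replicate 2 an assembled locus, chrM:11470-11816, had 187 FPKM from 65.2 estimated fragments, and it spans the end of mt-Nd4, 3 transfer RNA genes and the start of mt-Nd5. The long shared locus of replicate 23 of the high extract dose also covers this stretch, and the mt-Nd5 locus of replicate 35 of the low cymopol dose overlaps its end. It enters no level above, so a gene listed at 0 can still hold fragments over part of its length.

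mt-Cytb (chrM:14145-15288, plus strand), which encodes cytochrome b, the haem-bearing core of complex III, was listed at 0 in all 15 libraries. mt-Co1 (chrM:5328-6872, plus strand), which encodes the catalytic subunit of complex IV, was listed at 0 in all 15 as well. mt-Co2, the complex IV subunit that receives electrons from cytochrome c, was likewise at 0 in all 15.

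mt-Atp6 (chrM:7927-8607, plus strand) encodes subunit a of ATP synthase, the part of the membrane channel through which protons return. Its value came from 1 locus, chrM:7766-9390, shared with mt-Atp8 and mt-Co3. It was 0.726 and 0.785 FPKM in replicates 12 and 14 of the high cymopol dose, 3.26 FPKM in replicate 34 of the low cymopol dose, 1.05 FPKM in replicate 25 of the high extract dose and 1.07 FPKM in vehicle replicate 4. It was listed at 0 in the other 10 libraries, and each of the 5 values rested on at most 0.222 estimated fragments. The 5 libraries are spread over 4 groups, so no group stood apart.

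A large part of the mitochondrial signal lay outside annotated genes. Of an estimated 1322 fragments on all 35 mitochondrial loci above 0, 1123 (85.0%) lay on 14 loci that touch no gene. By FPKM times length the same loci held 45.6%, the mt-Nd1 locus at 700 FPKM, which rested on 1.29 estimated fragments, being the largest single term in that sum. The 14 loci all lie beyond the last annotated gene, mt-Tp, in the control region, which holds the promoters and the origin of heavy-strand replication. They occurred in 13 of 15 libraries.

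Control-region loci had 89.4, 108 and 82.7 FPKM at the high cymopol dose, from 107, 132 and 100 estimated fragments. They had 275, 193 and 134 FPKM at the low cymopol dose, from 30, 17 and 100.1 fragments, and 107, 62.0 and 66.4 FPKM at the high extract dose, from 88.9, 120 and 98.5 fragments. The control-region fragments of the high extract dose, in which mt-Nd6 was listed at 0, thus overlapped in number with those of the high cymopol dose, in which it was not.

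At the low extract dose replicate 26 had no such locus, replicate 27 had 124 FPKM from 73.1 fragments and replicate 29 had 2 loci, at 417 and 192 FPKM. With vehicle replicate 2 had none, replicate 4 had 192 FPKM from 173 fragments and replicate 5 had 338 FPKM from 28.0. Replicate 2 of vehicle is the library with the locus between mt-Nd4 and mt-Nd5, and it had mt-Nd6 without a control-region locus, the reverse of the high extract dose.

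**Figure D3:**
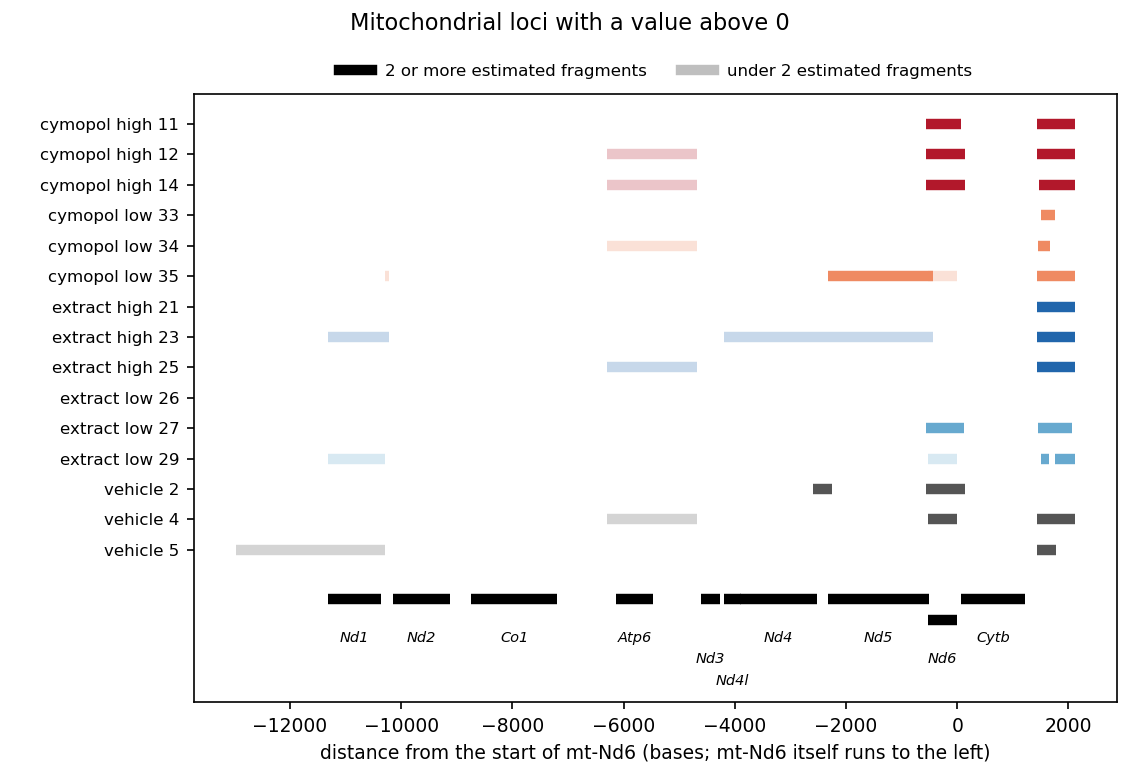
Mitochondrial loci with a value above 0, 1 line per library, by their distance in bases from the start of mt-Nd6 (mt-Nd6 runs to the left of 0), dark where the locus rested on 2 or more estimated fragments and pale where on fewer; black bars at the foot are the 10 genes, named without their mt- prefix. Dark loci gather at mt-Nd6 and beyond the right end of mt-Cytb, in the control region, 1 more lies between mt-Nd4 and mt-Nd5 in vehicle replicate 2, and the long loci over the other genes are pale except that over mt-Nd5 in replicate 35 of the low cymopol dose.

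All mitochondrial loci together made up a very small share of each library. By FPKM times length the share was 0.00424% ± 0.00126 at the high cymopol dose, 0.00200% ± 0.000914 at the low cymopol dose, 0.00584% ± 0.00602 at the high extract dose, 0.00796% ± 0.0117 at the low extract dose and 0.00304% ± 0.00168 with vehicle (SD, n = 3 each). The highest share was 0.0214% in replicate 29 of the low extract dose, which includes the mt-Nd1 locus at 700 FPKM from 1.29 estimated fragments. Replicate 23 of the high extract dose had 0.0128%, including that locus at 78.9 FPKM from 0.50 fragments. By estimated fragments the share was larger at the high cymopol dose, from 0.0242% to 0.0300%, and with vehicle, from 0.0111% to 0.0435%. It was 0.0378% in replicate 29, 0.0117% in replicate 23 and at most 0.0463% in any library.

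None of the 4 differences in this share passed the exact test, which cannot go below 0.1 with 3 against 3. The difference was 0.00120 percentage points for the high cymopol dose against vehicle (p = 0.4), -0.00104 for the low cymopol dose against vehicle (p = 0.4) and 0.00493 for the low extract dose against vehicle (p = 0.9), each by a two-sided exact permutation test. For the high cymopol dose against the low it was 0.00224, with an exact p of 0.1; these groups did not overlap, the high dose running from 0.00282% to 0.00522% and the low from 0.000952% to 0.00264%. Adjusted over these 4 comparisons by Benjamini-Hochberg, the exact p-values were 0.533, 0.533, 0.9 and 0.4 in the same order. Without replicate 29 of the low extract dose, the difference of 0.00493 turned to -0.00178. Counting by estimated fragments turned the sign of the difference between the cymopol doses, to -0.00239, and of that of the low cymopol dose against vehicle, to 0.00256. With annotated genes only, all 4 differences changed sign. On that measure every library of the high cymopol dose was at 0, since its mitochondrial loci above 0 are all assembled ones. Of the other groups compared, only vehicle replicate 4 (0.0175%), replicate 35 of the low cymopol dose (0.0411%) and replicate 29 of the low extract dose (0.00383%) were above 0.

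Pieces of mitochondrial DNA copied into nuclear chromosomes are annotated as pseudogenes and can share reads with the genes they copy. Of 141730 transcripts searched with BLAST, those of 17 nuclear genes matched a mitochondrial gene at 90% identity or more over at least 100 bases. Of these, 14 are copies of 9 of the 10 genes, mt-Nd1 having none, and 3 match without a mismatch: Gm10925 over 678 bases of mt-Atp6, Gm28439 over 876 bases of mt-Nd4 and Gm10222 over 294 bases of mt-Nd4l. Reads from such stretches cannot be assigned with certainty, and whether the authors discarded, split or moved them is not given in the sources used here.

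Several of these copies had values where the mitochondrial gene had none. Of the 14, 12 had a row and 11 were above 0 in at least 1 library, the highest at 12.9 FPKM. Gm13340 (chr2:22588103-22589647) is a copy of the whole of mt-Co1 at 97.6% identity, and it was above 0 in 15 of 15 libraries while mt-Co1 was at 0 in all 15. It was 0.380, 2.00 and 2.01 FPKM at the high cymopol dose, 1.52, 5.37 and 2.396 FPKM at the low cymopol dose, 0.724, 1.79 and 2.38 FPKM at the high extract dose, 0.121, 0.832 and 2.82 FPKM at the low extract dose, and 0.602, 1.79 and 2.69 FPKM with vehicle. The 5 groups overlapped.

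Gm28439 (chr1:24611535-24612410), the exact copy of part of mt-Nd4, was above 0 in 11 libraries. It was 1.39, 1.66 and 0.574 FPKM at the high cymopol dose, 1.47, 7.33 and 2.05 FPKM at the low cymopol dose, 0, 1.86 and 3.78 FPKM at the high extract dose, 0, 0 and 4.74 FPKM at the low extract dose, and 0, 2.84 and 12.9 FPKM with vehicle. Its highest value was in vehicle replicate 5, the library with the highest sum of FPKM times gene length. The factor of that library under median-of-ratios scaling was not the highest, and the part of scale in this value was not tested. Gm11408, a copy of mt-Nd6 on chromosome 4 at 93.6% identity over all 519 bases, was above 0 only in replicates 23 and 25 of the high extract dose, at 0.946 and 1.23 FPKM. Both are libraries in which mt-Nd6 itself was at 0, and replicate 23 was the deepest library, with 556026 estimated coding fragments. Gm11408 was at 0 in replicate 21 of the high extract dose, where mt-Nd6 was at 0 too. The same held for replicates 33 and 34 of the low cymopol dose, replicate 26 of the low extract dose and vehicle replicate 5. The part of shared reads or of depth in this was not tested.

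**Figure D4:**
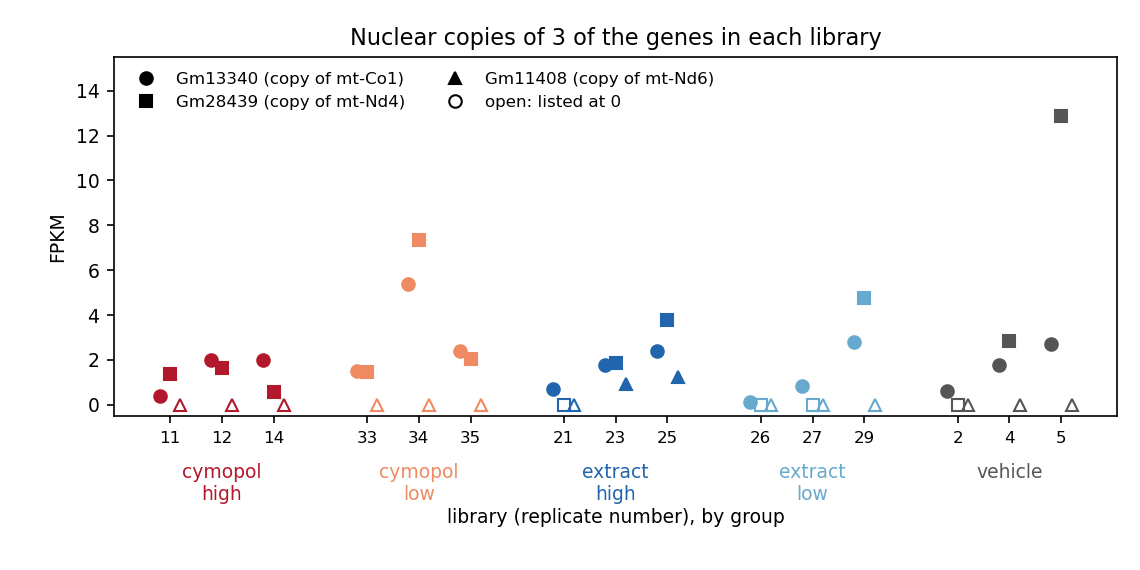
FPKM of 3 nuclear copies in each library by group: circles for Gm13340 (copy of mt-Co1), squares for Gm28439 (copy of mt-Nd4) and triangles for Gm11408 (copy of mt-Nd6), open where listed at 0. Gm13340 is above 0 in all 15 libraries, and Gm11408 only in 2 libraries of the high extract dose.

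The respiratory complexes are built from mitochondrial and nuclear subunits together, so the nuclear subunits of the same complexes are given beside the 10 genes. For the high cymopol dose against vehicle, the median log2 difference was 2.04 over 33 of 36 nuclear complex I genes tested, 2.81 over 9 of complex III, 2.01 over 10 of 11 of complex IV and 2.67 over 15 of 16 of ATP synthase, beside 0.81 over all genes tested. Above 0 were 33 of 33, 9 of 9, 9 of 10 and 13 of 15 of them, beside 79.5% of all genes tested. None passed the test in either direction in any of the 4 comparisons. At an unadjusted p under 0.05 in limma there were 10 of complex I, 4 of complex III, 4 of complex IV and 8 of ATP synthase for the high cymopol dose against vehicle, beside 13.2% of all genes tested. The difference of mt-Nd6, 2.31, was taken against the same vehicle libraries. Of these, replicate 2 had a median-of-ratios factor of 0.149, and the medians under that scaling are given below.

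Markers of several cell types also had positive medians in the same comparison, and their part in the medians was not tested. The median difference was 2.18 over 17 colonocyte markers, 2.17 over 6 goblet cell markers and 1.85 over 9 adipocyte markers, with all of them above 0, and under median-of-ratios scaling it was 1.02, 1.01 and 0.92. It was 1.43 over 9 smooth muscle markers and 0.59 over 5 enteric neuron and glia markers, and 0.20 and 0.35 under that scaling. Over 4 B cell markers it was -0.72, with 0 of them above 0, and -1.01 under that scaling. The medians over all genes tested were 0.81 and 0.24. The summed level of 17 colonocyte markers was 2423 to 2734 FPKM at the high cymopol dose, against 171 to 3006 FPKM with vehicle, with 0 of 17 listed at 0 in each high-dose cymopol library and 1 in each vehicle library. That of 9 adipocyte markers was 148 to 331 FPKM at the high cymopol dose, against 7.34 to 391 FPKM with vehicle, with at most 1 and at most 6 listed at 0.

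Single genes show how wide the spread was. Ndufs6, an accessory complex I subunit of the peripheral arm, was 21.4, 28.0 and 26.1 FPKM at the high cymopol dose, against 0, 3.38 and 0 FPKM with vehicle. Its difference was 3.99 ± 1.13 (SE), with an adjusted p of 0.195 in limma. Uqcrq, an accessory complex III subunit, was 105, 128 and 117 FPKM at the high cymopol dose, against 0, 90.0 and 0 FPKM with vehicle (difference 4.70 ± 1.69, adjusted p = 0.291 in limma).

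Cox5a, a subunit of complex IV, was 48.2, 78.8 and 76.7 FPKM at the high cymopol dose, against 0.494, 12.4 and 0 FPKM with vehicle (difference 4.63 ± 1.31, adjusted p = 0.195 in limma). Atp5b, the catalytic beta subunit of ATP synthase, was 600, 594 and 624 FPKM at the high cymopol dose, against 12.7, 67.02 and 243 FPKM with vehicle (difference 3.32 ± 1.35, adjusted p = 0.314 in limma). In each of these 4 genes, named for their large differences, the high cymopol dose was above vehicle without overlap, as 19.5% of all genes tested were.

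The other comparisons gave smaller medians for these lists. For the low cymopol dose against vehicle they were 0.38 for complex I, 1.05 for complex III, 1.01 for complex IV and 0.22 for ATP synthase, beside 0.23 over all genes tested. For the low extract dose against vehicle they were 0.60, 0.32, -0.03 and -0.29 in that order, beside -0.14 over all genes, and the last 2 turned positive, to 0.56 and 0.99, under median-of-ratios scaling. For the high cymopol dose against the low they were 1.51, 2.08, 1.03 and 1.25, beside 0.59 over all genes. Median-of-ratios scaling also brought the median over all genes for the high cymopol dose against vehicle to 0.24, those of the 4 complexes to 1.12, 1.49, 1.23 and 1.85, and the difference of mt-Nd6 to 0.89.

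**Figure D5:**
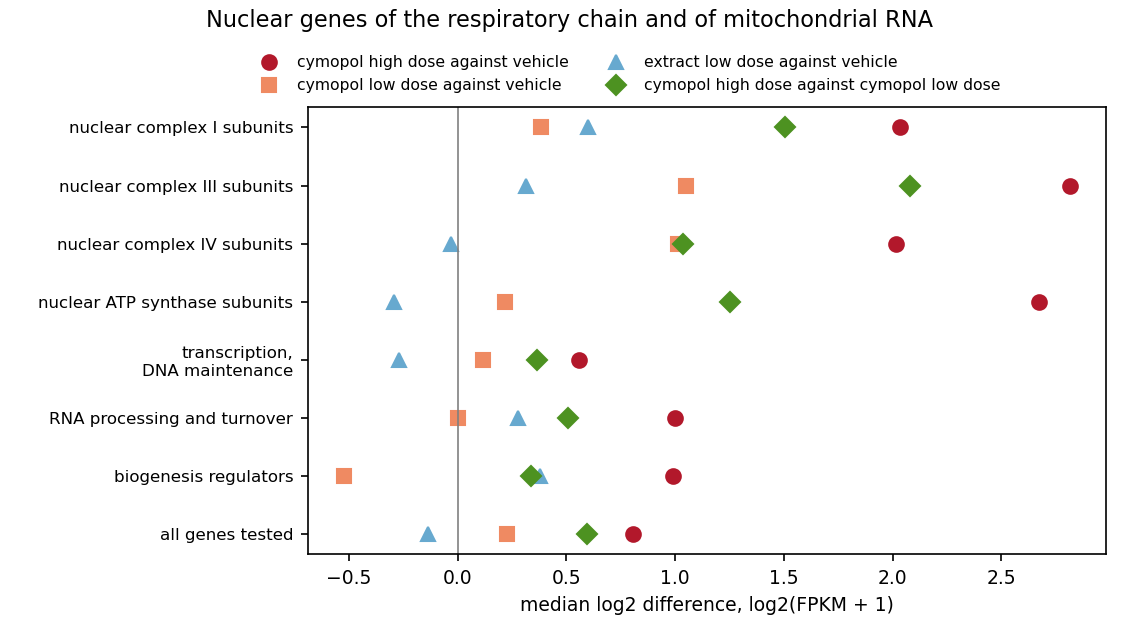
Median difference on the log2(FPKM + 1) scale of nuclear respiratory subunits by complex, of genes for mitochondrial transcription, RNA processing and biogenesis, and of all genes tested, with 1 symbol for each of 4 comparisons. The 4 complexes reach 2.01 to 2.81 for the high cymopol dose against vehicle, where all genes tested have a median of 0.81.

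Genes that make and process mitochondrial RNA form 3 further lists. For the high cymopol dose against vehicle, the median was 0.56 over 11 of 18 genes of mitochondrial transcription and DNA maintenance tested, 1.00 over 19 of 25 of RNA processing and turnover and 0.99 over 7 of 7 biogenesis regulators, beside 0.81 over all genes tested. For the low cymopol dose against vehicle the medians were 0.12, 0 and -0.52 in that order, beside 0.23 over all genes. None passed the test in limma in any of the 4 comparisons. For the high cymopol dose against vehicle, 1 of 11, 3 of 19 and 0 of 7 had an unadjusted p under 0.05 in limma. The share over all genes tested was 13.2%. Under median-of-ratios scaling the first median turned negative, to -0.56 for the high and -0.69 for the low cymopol dose against vehicle. Polg, the catalytic subunit of the mitochondrial DNA polymerase, was 2.75, 28.9 and 22.6 FPKM at the high cymopol dose, against 0.716, 10.7 and 0 FPKM with vehicle, and these groups overlapped. Ptcd2, which takes part in maturing the mt-Cytb transcript in mice, was 2.88, 7.43 and 4.29 FPKM at the high cymopol dose, against 0.268, 0 and 0 FPKM with vehicle (difference 2.36 ± 0.83, adjusted p = 0.285 in limma).

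Across the 15 libraries the genes whose log2(FPKM + 1) followed mt-Nd6 most closely, of all genes tested, were Mesd (Pearson r = 0.832), Mcm5 (0.788), Rasgrp2 (0.757), Fmo1 (0.750) and Dlg3 (0.744). These coefficients are a description over 15 libraries that share groups and differ in depth, and they include the 3 zeros of the high extract dose that chose the list. All 5 of these genes were at 0 in vehicle replicate 5 and under 0.3 FPKM in replicate 26 of the low extract dose, both of them libraries with mt-Nd6 at 0 and among the 3 shallowest. None of the 5 is encoded in mitochondria.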

How the data were processed

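RNA of the large intestine was measured in 15 libraries, 5 groups of 3. Per the labels' protocols, 90 ng of total RNA was depleted of ribosomal RNA before a low-input library preparation. The deposited values are FPKM with an interval, made by the authors, 1 table per library, in columns of the Cufflinks kind per the file headers. Alignment used STAR 2.4.0j and GRCm38.p4, per the submitters' processing notes. How multiply mapped reads were handled, and which quantifier version and annotation release were used, is not given in the sources used here.

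Of 38189 identifiers in the tables, 37764 are in GENCODE M21, from which symbols, lengths and sequences were taken. A gene without a row took the value of an assembled locus (span shared at least 0.5 for the whole table, at least 0.5 of the gene covered for mitochondrial genes). Fragments were estimated from each interval, taken as 2 standard deviations of a Poisson count on each side, which understates them where the interval is wider than counting allows. Such estimates cover counting error only.

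The 11518 genes that had a value throughout, and at least 1 FPKM in at least 3 libraries, were tested as log2(FPKM + 1) in limma 3.58.1 (R 4.3.3) with all groups, 2-sided, at a Benjamini-Hochberg adjusted p of 0.05. Fold changes on this scale understate those of low genes. Shares were compared by an exact permutation test. The other steps used Python 3.11.15 and BLAST 2.17.0, and the limma fit was tested on simulated data.

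The 10 genes, the lists and the tests were chosen with earlier results of these data known. Beside the 10 genes the rule names nuclear copies, up to 4 genes per list with the largest difference in a tested comparison, and the 5 genes that follow mt-Nd6 most closely. Alternatives were another pseudocount, no filter, median-of-ratios scaling, 2 groups only, each library left out and, after the data were seen, estimated fragments in place of FPKM and the deeper libraries only.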

Additional observations from a re-analysis of the deposited data

Results flagged for a closer look

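Taken locus by locus, signals in mitochondrial loci that belong to none of the 10 genes stood above the vehicle libraries in 3 cases. A control-region locus of replicate 29 of the low extract dose had 417 FPKM from an estimated 21.0 fragments, against a highest vehicle value of 338 FPKM. Their intervals, 235 to 598 and 211 to 466, overlapped. That library had 2 control-region loci, the other at 192 FPKM, and weighted by length the 2 had 262 FPKM, below the 338 FPKM of vehicle replicate 5. The mt-Tq gene, for the glutamine transfer RNA read from the same strand as mt-Nd6, had 421 FPKM in replicate 35 of the low cymopol dose, from 1.33 fragments. It had 147 FPKM in replicate 23 of the high extract dose, from 1.28 fragments, and was listed at 0 in all 3 vehicle libraries. The lower bound of both mt-Tq values was 0. No difference was tested.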

How the results depend on the processing

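No paired analysis was possible because the replicate numbers differ between all groups. mt-Nd6 passed the test under none of 44 alternative limma fits over the 4 comparisons, with a lowest adjusted p of 0.155. Leaving out each library in turn, its difference ran from 0.58 to 3.28 for the high cymopol dose against vehicle, -4.33 to -1.63 for the low cymopol dose against vehicle, -2.09 to 1.17 for the low extract dose against vehicle and 4.49 to 5.75 for the high cymopol dose against the low. The low extract dose comparison turned positive without replicate 26 of the low extract dose (1.17), without vehicle replicate 2 (0.61) or vehicle replicate 4 (0.39), and on estimated fragments relative to all of a library's (0.15).

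The mitochondrial share changed sign with annotated genes only in all 4 comparisons, to -0.00585 for the high cymopol dose, 0.00783 for the low cymopol dose and -0.00457 for the low extract dose against vehicle, and -0.0137 between the cymopol doses. Every library of the high cymopol dose was at 0 on that measure, as its mitochondrial loci above 0 are assembled ones. Without length weights it changed sign for the low cymopol dose against vehicle (0.00200) and between the cymopol doses (-0.000472), and by estimated fragments for the same 2 comparisons (0.00256 and -0.00239). Leaving out each library, the difference ran from 0.000262 to 0.00191 for the high cymopol dose, -0.00198 to -0.000362 for the low cymopol dose and -0.00178 to 0.00891 for the low extract dose against vehicle, and 0.00172 to 0.00295 between the cymopol doses. The value of -0.00178 was without replicate 29 of the low extract dose, the library with the highest share.

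Calls over all genes for the high cymopol dose against vehicle, 2 in the report, were 7 with a pseudocount of 0.1, 1 without a filter, 0 with median-of-ratios scaling, 0 with 2 groups only, 0 to 8 leaving out a library and 277 in the deeper libraries. For the low cymopol dose against vehicle they were 2 with median-of-ratios scaling and 0 to 9 leaving out a library. For the low extract dose against vehicle they were 1 with a pseudocount of 0.1, 0 to 8 leaving out a library and 369 in the deeper libraries. Between the cymopol doses they were 0 with a pseudocount of 0.1, 0 with median-of-ratios scaling, 0 to 2 leaving out a library and 0 in the deeper libraries, which hold 1 low-dose cymopol library. The most calls came without vehicle replicate 2 for both cymopol doses (8 and 9) and without vehicle replicate 5 for the low extract dose (8). With annotated rows alone a median of 3 of the 10 genes had a level in a library, since assembled loci hold the rest. For the other changes the cause was not tested. Counting error is large for these levels: 11 of the 18 loci behind the values above 0 rested on fewer than 2 estimated fragments.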
